A study of Mus musculus with 5 samples.

Results

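The cells described here were the deeply sequenced Sertoli cells of 3 late libraries from synchronized mouse testis, taken 350.4, 556.8 and 763.2 h after synchronization. They were chosen barcode by barcode. A barcode was kept when it held at least 5000 unique molecular identifiers (UMIs, counted RNA molecules), had under 50% of its UMIs on mitochondrial transcripts, and had no more than 3 UMIs of the germ cell genes Ddx4 and Dazl. It also had to hold at least 4 of 8 Sertoli genes (Sox9, Wt1, Cldn11, Cst12, Cst9, Defb19, Aard and Rhox8), which together had to make up at least 0.2% of its UMIs. This left 479 of the 28729 barcodes in the 3 libraries, out of 46451 barcodes in the whole series of 5. There were 236 cells at 350.4 h, 147 at 556.8 h and 96 at 763.2 h, and the same rule found 1591 cells at 144 h and 1643 at 0 h. The study followed Sertoli cells as the cycle of the seminiferous epithelium was set up, sampling synchronized testes each time stages VIII-IX came round. Each time was 1 library of dissociated whole testis, and all 5, including the one labelled as the control at 0 h, came from synchronized mice. Tubules had been settled and the supernatant taken off repeatedly before trypsin, so cells between the tubules were depleted. The labels name neither the agent used to synchronize nor the strain, the age or the number of animals per library.

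Sertoli cells are the somatic cells of the seminiferous tubule. They line its wall, join to each other by tight junctions that form the blood-testis barrier, and surround every germ cell from spermatogonium to elongating spermatid. They respond to follicle-stimulating hormone and to testosterone, and they feed germ cells with lactate, growth factors and transport proteins. Their transcription is known to change with the stage of the cycle, that is, with the set of germ cells they hold at the time.

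With 1 library per time there was no replicate and no test. A difference between times is a difference between libraries, and every interval below is a 95% interval for counting error only. Levels are in CPM, UMIs of a gene per 1000000 UMIs summed over the cells of a library. A gene was compared when its mean over the libraries was at least 20 CPM, and is called higher or lower when its level differed at least 2-fold. A median cell held 27914.5, 18848 and 16640.5 UMIs at 350.4, 556.8 and 763.2 h, and the cells of a library summed to 6283664, 2748680 and 1463805 UMIs. The median mitochondrial share was 22.7, 19.8 and 24.2% at these times, above 15.2% at 144 h and 7.17% at 0 h. The cells were 3.17% of barcodes at 350.4 h (exact binomial interval 2.79-3.60%), 1.58% at 556.8 h (1.34-1.86%) and 0.801% at 763.2 h (0.649-0.977%). Only barcodes with at least 5000 UMIs could be chosen, and these numbered 3139, 5580 and 3566. Among them the cells were 7.52, 2.63 and 2.69%, so the share was not lower at 763.2 h than at 556.8 h by this measure. Between 11 and 30 barcode sequences were shared by any pair of the late libraries, and none of them was a chosen cell in both.

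The cells carried the Sertoli markers that the rule did not use. Of 18 such markers, 17 were at 20 CPM or more in each late library, the exception being the follicle-stimulating hormone receptor Fshr, at 5.09, 6.55 and 3.42 CPM. Together the 18 summed to 17513, 12617 and 16099 CPM at 350.4, 556.8 and 763.2 h, against 1217, 210 and 215 CPM in all other barcodes of the same libraries. The 8 genes of the rule summed to 20661, 15497 and 17428 CPM. At the edge of the rule, the lowest share of these 8 genes among the chosen cells was 0.241, 0.205 and 0.219% of UMIs, and the nearest barcode outside had 0.199, 0.197 and 0.131%. The limit on Ddx4 and Dazl was met exactly, with 3 UMIs, by 59, 16 and 8 cells, and 31, 8 and 9 further barcodes missed it with 4. The limit of 50% mitochondrial UMIs left out 123, 15 and 4 barcodes that met the rest of the rule, so it cut most at 350.4 h. How these barcodes would change the comparisons was not tested.

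RNA of spermatids was the main other signal in these cells, and it came with the 2 latest libraries. The 10 spermatid markers, led by protamines and transition proteins, summed to 92.8 CPM at 350.4 h, 25772 CPM at 556.8 h and 18384 CPM at 763.2 h, against 553, 30584 and 38340 CPM in the other barcodes. More spermatid marker RNA than RNA of the 8 Sertoli genes was present in 0 cells at 350.4 h, in 52 of 147 (35.4%) at 556.8 h and in 24 of 96 (25%) at 763.2 h. Values are therefore also given for a stricter set, in which the 8 genes made up at least 1% of UMIs and the spermatid markers under 1%. This marker filter, chosen after the data were seen, kept 221, 82 and 64 cells and left 91.1, 3264 and 2919 CPM of spermatid markers. Cells that failed it had a median mitochondrial share of 36.8, 9.54 and 13.2%, against 22.6, 22.0 and 25.1% in those that passed. The Leydig cell list summed to 98.7, 9.82 and 10.9 CPM, the peritubular myoid list to 59.8, 83.7 and 54.0 CPM, and the macrophage list to 0.159, 4.00 and 3.42 CPM. The red blood cell list summed to 26.6, 9.10 and 2488 CPM, and 1 cell at 763.2 h had 64.9% of its UMIs on haemoglobin genes. After the marker filter, which left that cell out, the list summed to 27.4, 11.1 and 55.5 CPM, and all of the 763.2 h value was Alas2. The spermatogonial list summed to 103, 515 and 270 CPM, mainly through Uchl1, and Ret and Kit were at 0 at 556.8 and 763.2 h. The spermatocyte list summed to 314, 2964 and 1817 CPM.

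**Figure D1:**
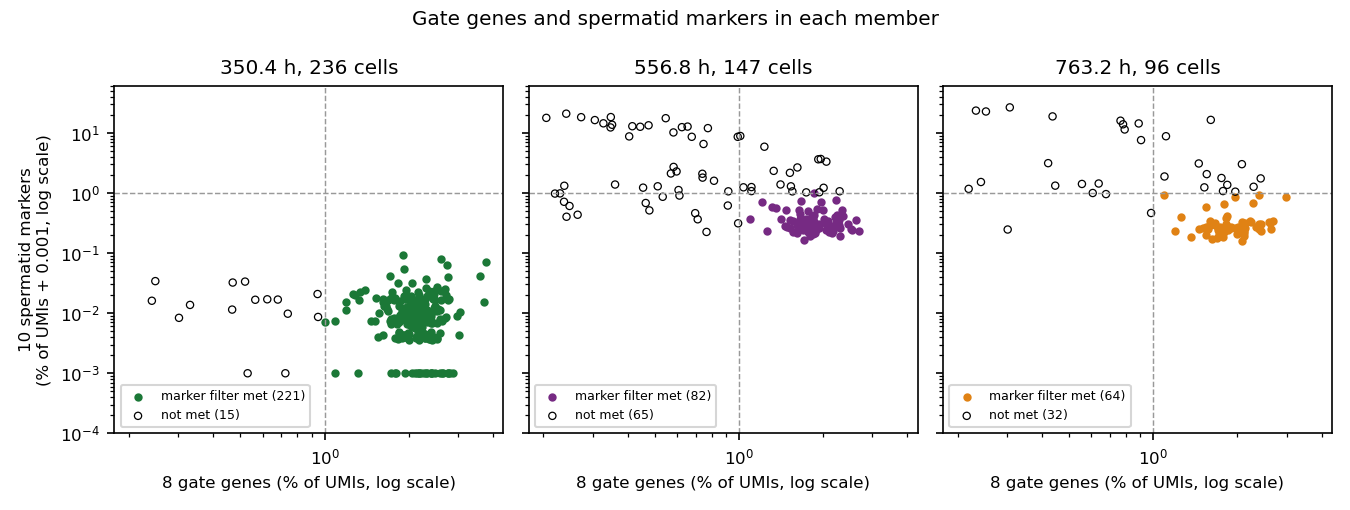
Each point is 1 cell, with the share of its UMIs on the 8 Sertoli genes (horizontal, %, log scale) against that on the 10 spermatid markers (vertical, % plus a small constant, log scale), in 3 panels for 350.4, 556.8 and 763.2 h. Filled points passed the marker filter (221, 82 and 64 cells) and open points did not (15, 65 and 32). The dashed lines mark 1%. A cloud of cells rich in spermatid RNA is present at 556.8 and 763.2 h and lacking at 350.4 h.

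Most of the abundant genes chosen for being enriched in Sertoli cells at every late time varied less than 2-fold. In each of the 3 libraries, 1148 genes were at least 5 times as high in the Sertoli cells as in the other barcodes. Of these, 147 averaged at least 200 CPM, and 119 of the 147 varied less than 2-fold between the lowest and the highest library. Asking for enrichment in each library leaves out genes that were low in one of them, and the 147 include genes of the rule, so the count describes only this selection. The defensin-like gene Defb19, part of the rule, was at 7002, 6155 and 6774 CPM at 350.4, 556.8 and 763.2 h. Clusterin, Clu, a secreted chaperone, was at 5438, 4192 and 5410 CPM. Cathepsin L, Ctsl, a lysosomal protease whose Sertoli level is known in rat to vary with the stage, was at 5071, 2984 and 4936 CPM, a highest-to-lowest ratio of 1.70. The receptor of anti-Müllerian hormone, Amhr2, was at 1506, 1125 and 1478 CPM. The actin-bundling protein of the ectoplasmic specialization, Espn, was at 684, 699 and 914 CPM, and the inhibin subunit Inha at 1243, 1232 and 743 CPM. Each of these genes varied less than 2-fold between the lowest and the highest library. The lineage transcription factor Gata4 was lower but likewise steady, at 50.8, 42.9 and 40.3 CPM. Anti-Müllerian hormone itself, Amh, made by immature Sertoli cells, was at 36.8, 9.46 and 10.9 CPM.

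The step between 350.4 and 556.8 h separated a pair of gene sets in opposite directions. Galectin-1, Lgals1, a secreted lectin, was at 560 CPM at 144 h, 59.997 CPM at 350.4 h, 787 CPM at 556.8 h and 548 CPM at 763.2 h. At 556.8 h it was 13.1 times its level at 350.4 h (interval 11.8 to 14.7; 15.8 in cells that passed the marker filter). The ubiquitin hydrolase Uchl1 was at 63.0, 480 and 234 CPM at 350.4, 556.8 and 763.2 h, and the lipid droplet protein Cidea at 52.8, 321 and 156 CPM. Their levels at 556.8 h were 7.62 times (6.81 to 8.55) and 6.08 times (5.35 to 6.92) those at 350.4 h. All 3 genes were thus lowest at 350.4 h among the 4 times from 144 h on, since Uchl1 had been at 478 CPM and Cidea at 370 CPM at 144 h.

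Shares of cells followed the same order for these genes. With every cell thinned to 5000 UMIs, Lgals1 was found in 13.6, 77.6 and 55.2% of Sertoli cells at 350.4, 556.8 and 763.2 h, and unthinned in 27.1, 85.7 and 60.4%. In germ cell barcodes, thinned alike, it was found in 29.2, 15.5 and 18.3%, so at 350.4 h the Lgals1 share was lower in the Sertoli cells. Whether the germ cell barcodes held free RNA or RNA of their own was not tested. The median depth of the germ cell barcodes was 22114.5, 10096 and 25139 UMIs. Uchl1 was found in 17.4, 72.8 and 52.1% of thinned Sertoli cells against 62.1, 14.1 and 19.8% of germ cell barcodes. It is on the spermatogonial list, so its share in germ cell barcodes does not measure background. Cidea was found in 12.3, 57.8 and 36.5%, against 0.641, 1.21 and 0.335% of germ cell barcodes.

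Other genes that the rule for named genes placed among the highest at 556.8 h against 350.4 h had lower levels. Tmem255a, a membrane protein, was at 23.2, 145 and 148 CPM at 350.4, 556.8 and 763.2 h, 6.23 times as high at 556.8 h as at 350.4 h (5.14 to 7.59). The cell cycle inhibitor Cdkn1a, which encodes p21, was at 12.1, 67.7 and 63.5 CPM, and the nuclear receptor Rora at 18.1, 110 and 79.9 CPM. The ratios of 556.8 to 350.4 h were 5.59 (4.26 to 7.41) for Cdkn1a and 6.08 for Rora. The transcription corepressor Nacc2, the arginine sensor Gatsl3 and the ankyrin repeat gene Sowahd were 6.96, 5.73 and 7.85 times as high. The actin and phosphatase regulator Phactr1 was 7.02 times as high, at 13.7, 96.0 and 79.9 CPM, and was also present in the other barcodes, at 4.88, 47.8 and 86.0 CPM. The intervals of all these ratios lay beyond 2-fold, as the rule required.

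Set against them were genes that were high at 350.4 h and low at 556.8 h. Aquaporin-8, Aqp8, a water channel, was at 4.94 CPM at 144 h, 251 CPM at 350.4 h, 32.4 CPM at 556.8 h and 271 CPM at 763.2 h. At 556.8 h this was 0.129 times the level at 350.4 h (0.103 to 0.160). In thinned Sertoli cells it was found in 64.4, 6.80 and 34.4% at 350.4, 556.8 and 763.2 h, against 3.33, 0.366 and 0.796% of germ cell barcodes. The glutathione S-transferase Gsta2, a detoxifying enzyme, was at 90.5, 392, 65.5 and 205 CPM at the 4 times, 0.167 times as high at 556.8 h as at 350.4 h (0.143 to 0.194). The monocarboxylate transporter Slc16a3, which moves lactate out of cells, was at 85.1, 9.46 and 21.9 CPM at the 3 late times (ratio 0.111, 0.0719 to 0.165). The metal-binding protein Mt3 was at 58.9, 5.09 and 0.683 CPM, the last resting on 1 UMI (ratio of 556.8 to 350.4 h 0.0865, and 0.150 after the marker filter). The inhibitors of helix-loop-helix factors Id2 and Id3 were 0.151 and 0.146 times as high, and the matrix protein Mgp 0.166 times. The kinase Pak6 was 0.129 times as high and the LIM protein Trip6 0.155 times.

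**Figure D2:**
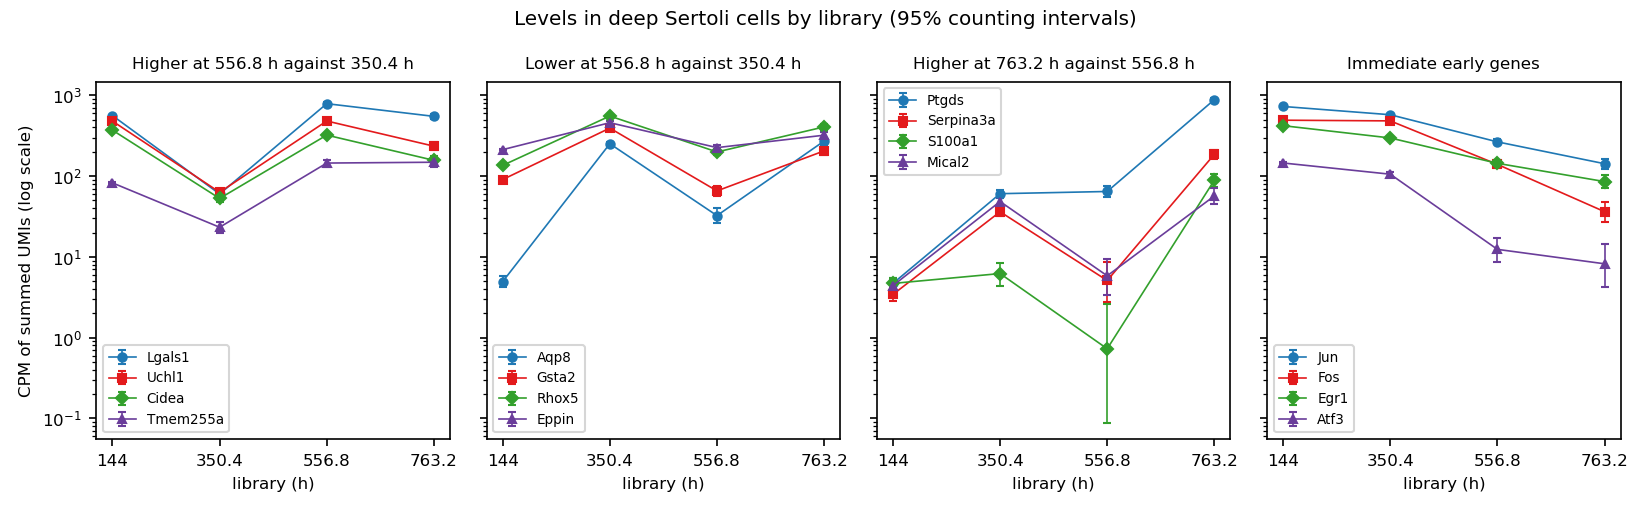
Levels of 16 genes in the Sertoli cells of each library (CPM, log scale) at 144, 350.4, 556.8 and 763.2 h, with 95% counting intervals and 1 library per time. The panels hold genes higher at 556.8 h against 350.4 h, genes lower at 556.8 h against 350.4 h, genes higher at 763.2 h against 556.8 h, and immediate early genes. Lgals1 dips at 350.4 h, Aqp8 dips at 556.8 h, Ptgds stands at 882 CPM at 763.2 h, and Fos, Jun, Egr1 and Atf3 are lower at 556.8 h than at 350.4 h and lower again at 763.2 h.

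Across all genes compared, 1202 of 6701 (17.9%) were higher and 338 (5.04%) lower at 556.8 h than at 350.4 h, with a median log2 ratio of −0.13. Of the 1202 higher genes, 1081 (89.9%) were below their level in the other barcodes of the 556.8 h library, and 65 were at least 2 times above it. Of the 338 lower genes, 256 (75.7%) were at least 2 times as high in Sertoli cells at 350.4 h as in other barcodes. Over all 6701 genes compared, 2507 were at least 2 times as high in Sertoli cells as in other barcodes at 556.8 h, and 1812 at 350.4 h. Called genes were chosen for being high in the same library in which they were set against other barcodes, so these shares describe the selection. The marker filter left 716 higher and 171 lower. Spermatid markers summed to 25772 CPM in the cells at 556.8 h and 92.8 CPM in those at 350.4 h. With free RNA subtracted, scaled so that these markers came to 0, 68 genes were higher and 1965 lower, which turns the balance round. The median log2 ratio was then −0.94. The subtraction took 84.3% of the other barcodes' profile at 556.8 h and 16.8% at 350.4 h. What was left was not scaled back to a common total, so part of this turn follows from the setting itself. With the filter and the subtraction together 660 were higher and 148 lower.

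At 763.2 h, a further set of genes was high in the Sertoli cells. The lipocalin-type prostaglandin D synthase Ptgds, a secreted enzyme and carrier, was at 4.69 CPM at 144 h, 60.5 CPM at 350.4 h, 64.4 CPM at 556.8 h and 882 CPM at 763.2 h. It was 13.7 times as high at 763.2 h as at 556.8 h (11.7 to 16.1) and 14.6 times as high as at 350.4 h (13.0 to 16.4). It was found in 62.5% of thinned Sertoli cells at 763.2 h against 1.68% of germ cell barcodes. The protease inhibitor Serpina3a was at 36.1, 5.09 and 186 CPM at 350.4, 556.8 and 763.2 h, 36.5 times as high at 763.2 h as at 556.8 h (21.4 to 67.6). The calcium-binding protein S100a1 was at 6.21 CPM, 0.728 CPM (2 UMIs) and 88.8 CPM (ratio 122, 33.1 to 1019, and 93.3 after the marker filter). The growth factor binding protein Igfbp7 was at 13.4, 1.46 (4 UMIs) and 88.1 CPM, 60.6 times as high at 763.2 h as at 556.8 h (23.1 to 226). At 350.4 h, 58 of its 84 UMIs came from 1 cell.

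The actin-oxidizing enzyme Mical2 was at 48.4, 5.82 and 56.7 CPM at 350.4, 556.8 and 763.2 h and the prion protein gene Prnp at 46.8, 14.6 and 91.5 CPM, ratios of 763.2 to 556.8 h of 9.74 and 6.29. The haem synthesis enzyme Alas2 was at 25.6, 9.10 and 54.7 CPM (ratio 6.01, 3.79 to 9.83; 5.01 after the marker filter). Alas2 is also on the red blood cell list. The secreted protein Fam132a was at 63.8, 37.8 and 167 CPM (ratio 4.42). Aqp8 and Gsta2 were back up as well, 8.38 times (6.64 to 10.7) and 3.13 times (2.59 to 3.79) their levels at 556.8 h, and Aqp8 was at 1.08 times its 350.4 h level (0.965 to 1.21).

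With only the 31 and 77 cells under 20% mitochondrial UMIs at 763.2 and 556.8 h, Aqp8 was 1.55 times as high at 763.2 h, below 2-fold. The same limit took Serpina3a to 0.886 times and S100a1 to 1.91 times its 350.4 h level at 763.2 h, and Igfbp7 to 0.280 times.

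Fewer named genes were lower at 763.2 h than at 556.8 h, 6 under the rule. The chemokine Cxcl1 was at 76.2, 96.8 and 16.4 CPM at 350.4, 556.8 and 763.2 h, and the nuclear protein Ptms at 225, 78.2 and 14.3 CPM, ratios of 763.2 to 556.8 h of 0.169 and 0.183. The stress gene Gadd45b was at 237, 218 and 68.3 CPM. Cardiac troponin I, Tnni3, was at 982 CPM at 144 h and 577, 254 and 95.6 CPM at the late times, and the collagen gene Col18a1 at 219, 171 and 65.6 CPM. Their levels at 763.2 h were 0.314, 0.377 and 0.384 times those at 556.8 h, and with cells lacking any Ddx4 or Dazl UMI the ratio for Col18a1 was 0.536. Fos completed the 6.

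Between 763.2 and 556.8 h, 129 genes (1.93%) were higher and 210 (3.13%) lower, with a median log2 ratio of −0.05. Of the 129 higher genes, 112 (86.8%) were at least 2 times as high in the Sertoli cells as in the other barcodes. Over all 6701 genes compared, 2705 were so at 763.2 h. Of the 210 lower genes, 146 (69.5%) were below the other barcodes at 556.8 h. The higher genes were 38.1% of those called, and 51.3% when mitochondrial UMIs were left out of the total. Between 763.2 and 350.4 h, 1075 genes (16.0%) were higher and 244 (3.64%) lower, with a median of −0.08. With free RNA subtracted the counts turned round in both, to 1259 higher and 67 lower against 556.8 h and to 92 higher and 854 lower against 350.4 h. The median log2 ratios were then 0.56 and −0.44, and part of this turn too follows from the setting itself. With the marker filter as well the counts were 122 and 94, and 658 and 142. Both comparisons use the 763.2 h library. Among the lower genes over this longer span, the actin-binding gene Cnn3 was at 61.3, 11.3 and 0 CPM, at least 29.9-fold lower at 763.2 h with a floor of 3 UMIs for that library. The surface protein Ly6e was at 85.6, 33.8 and 7.51 CPM (ratio of 763.2 to 350.4 h 0.0878). Among the higher genes, the platelet glycoprotein subunit Gp1bb was at 6.05, 26.6 and 75.8 CPM (ratio 12.5, 8.60 to 18.6), and the membrane-bending protein Fnbp1 at 13.4, 70.9 and 73.1 CPM (ratio 5.47).

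Several androgen-responsive genes were, like Aqp8, high at 350.4 h and lower at 556.8 h. The homeobox gene Rhox5, a classic androgen target of Sertoli cells in mouse, was at 136 CPM at 144 h and 553, 199 and 406 CPM at 350.4, 556.8 and 763.2 h. It was 0.359 times as high at 556.8 h as at 350.4 h (0.327 to 0.393; 0.442 after the marker filter) and 2.04 times as high at 763.2 h as at 556.8 h (1.82 to 2.30; 1.86 after the filter). The protease inhibitor Eppin was at 212, 458, 225 and 320 CPM at the 4 times, the dopamine receptor Drd4 at 300, 493, 166 and 164 CPM, and the glycerol phosphate enzyme Gpd1 at 40.3, 82.9, 28.4 and 51.9 CPM. Of 9 genes on the list, 8 were compared. At 556.8 h against 350.4 h, 4 were lower (Rhox5, Eppin, Drd4 and Gpd1) and none higher, beside 5.04% lower and 17.9% higher over all genes compared. The median log2 ratio was −0.77, against −0.13 over all genes. After the marker filter 3 were lower and the median was −0.51. Without the filter the other 4 genes differed less than 2-fold, among them the claudin Cldn3. Its median over cells that passed the filter did not fall, at 33.6, 60.1 and 81.7 CPM at 350.4, 556.8 and 763.2 h. At 763.2 h against 556.8 h, 2 were higher, Rhox5 and the protease Corin, which was at 99.1 CPM at 763.2 h against 40.0 CPM at 556.8 h. Over all genes 1.93% were higher. The median log2 ratio was 0.50 against −0.05 over all genes, and 1 gene was higher after the filter.

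The start regions of 4 genes are shown because they differed in opposite directions between the late libraries: Eppin, Aqp8 and Gsta2 were lower at 556.8 h than at 350.4 h, and Uchl1 was higher. Each is a window of 300 bases around the gene start annotated by RefSeq, 5′ to 3′ on the gene's strand, on GRCm38.p6. Capitals mark the core letters of the androgen response element, AGAACA or its reverse complement TGTTCT, searched on both strands with no other motif marked. Of 32851 windows of this kind, 6233 (19%) hold them. The windows are chr2:164593522-164593821 (minus strand) for Eppin, chr7:123462044-123462343 (plus) for Aqp8, chr9:78347096-78347395 (minus) for Gsta2 and chr5:66675871-66676170 (plus) for Uchl1.
Eppin: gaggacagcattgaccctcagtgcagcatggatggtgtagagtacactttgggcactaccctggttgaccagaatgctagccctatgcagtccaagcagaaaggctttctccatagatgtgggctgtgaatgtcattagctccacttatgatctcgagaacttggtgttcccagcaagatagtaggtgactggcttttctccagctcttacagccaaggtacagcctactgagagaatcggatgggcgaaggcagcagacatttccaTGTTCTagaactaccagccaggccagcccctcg
Aqp8: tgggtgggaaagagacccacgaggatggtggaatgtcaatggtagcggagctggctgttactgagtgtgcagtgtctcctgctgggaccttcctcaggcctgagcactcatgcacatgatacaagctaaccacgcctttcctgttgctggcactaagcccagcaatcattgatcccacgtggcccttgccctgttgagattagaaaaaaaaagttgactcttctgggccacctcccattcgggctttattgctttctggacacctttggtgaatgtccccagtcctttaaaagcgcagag
Gsta2: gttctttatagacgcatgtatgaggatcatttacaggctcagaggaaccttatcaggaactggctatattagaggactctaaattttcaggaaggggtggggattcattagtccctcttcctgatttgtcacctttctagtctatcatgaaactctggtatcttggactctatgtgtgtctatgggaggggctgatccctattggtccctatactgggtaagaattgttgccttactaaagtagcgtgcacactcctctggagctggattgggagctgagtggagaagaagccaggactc
Uchl1: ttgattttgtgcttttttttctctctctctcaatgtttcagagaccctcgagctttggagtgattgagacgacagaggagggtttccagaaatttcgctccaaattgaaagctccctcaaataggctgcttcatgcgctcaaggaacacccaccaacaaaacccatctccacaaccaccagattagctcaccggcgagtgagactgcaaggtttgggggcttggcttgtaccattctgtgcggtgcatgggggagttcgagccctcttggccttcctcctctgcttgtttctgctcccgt
The Eppin window has the letters at position 18 from the gene start. In the GENCODE annotation 1 longer transcript of Gsta2 starts upstream of its window, at position 78355788. These letters are not in the windows of Aqp8, Gsta2 and Uchl1, which says nothing about sequence elsewhere. Of other windows searched and not shown, those of Rhox5 and Serpina3a hold 1 match each and that of Ptgds holds 0. The Rhox5 window, chrX:37754358-37754657, lies upstream of the gene start in GENCODE, 37804842. A SOX motif was also searched for and is not described.

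Of the ligands that Sertoli cells make, Gas6, Pros1, Wnt6 and Kitl were lowest at 556.8 h among the late times. The ligands of the engulfment receptors of Sertoli cells, Gas6 and Pros1, were at 160, 91.7 and 249 CPM and at 81.2, 32.4 and 94.96 CPM at 350.4, 556.8 and 763.2 h. At 763.2 h they were 2.72 and 2.93 times their levels at 556.8 h. Wnt6 was at 26.9, 16.4 and 52.6 CPM (ratio 3.21), and the Kit ligand Kitl, which acts on spermatogonia, at 191, 90.6 and 115 CPM. The Wnt6 levels rested on 169, 45 and 77 UMIs. At 350.4 h Wnt6 was lower than at 144 h (log2 ratio −2.40), and Pros1 was higher. Of 14 genes on this list, 5 were compared. At 556.8 h against 350.4 h, 2 were lower (Kitl and Pros1, 1 after the marker filter), and at 763.2 h against 556.8 h, 3 were higher (Gas6, Pros1 and Wnt6, with or without the filter). Over all genes, 5.04% were lower in the first comparison and 1.93% higher in the second. The medians were −0.80 and 1.44, against −0.13 and −0.05 over all genes.

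Of 9 tight junction genes compared, none was called between any 2 of the late libraries, comparisons in which 1.93 to 17.9% of all genes compared were higher and 3.13 to 5.04% lower, with medians of −0.24 at 556.8 h and 0.14 at 763.2 h, each against the time before. The scaffold protein Tjp1 was at 97.1, 107 and 117 CPM and Jam3 at 91.0, 74.9 and 82.7 CPM. Of 15 glutathione genes compared, 4 were lower and 1 higher at 556.8 h than at 350.4 h, beside 5.04% lower and 17.9% higher over all genes, and 2 were lower after the marker filter. Gstm1 was at 1177, 508 and 488 CPM and Gstm2 at 1156, 570 and 629 CPM. The retinaldehyde-oxidizing enzyme Aldh1a1 was at 553, 199 and 225 CPM (ratio of 556.8 to 350.4 h 0.360), and the fatty acid carrier Fabp5 at 593, 150 and 204 CPM.

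Jun, Egr1 and Atf3, immediate early genes that tissue dissociation is known to induce, were lower at each later time from 144 h on, and Fos, another, from 350.4 h on. Fos was at 491 CPM at 144 h and 482, 139 and 36.2 CPM at 350.4, 556.8 and 763.2 h, and 34.0% of its UMIs at 763.2 h came from 1 cell. After the marker filter Fos was at 446 CPM at 144 h and 481, 190 and 40.1 CPM at the late times. Jun was at 727, 574, 265 and 142 CPM, Egr1 at 420, 296, 144 and 85.4 CPM, and Atf3 at 145, 105, 12.4 and 8.20 CPM. Of 13 such genes compared, 8 were lower and none higher at 556.8 h than at 350.4 h (median log2 ratio −1.04; 3 lower after the marker filter), beside 5.04% lower over all genes. At 763.2 h, 3 were lower than at 556.8 h (4 after the filter) and 11 lower than at 350.4 h (11 after it), with a median of −1.54 over the longer span. Over all genes 3.13% and 3.64% were lower in these comparisons. Whether these differences arose in the animals or in the dissociation cannot be told apart.

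**Figure D3:**
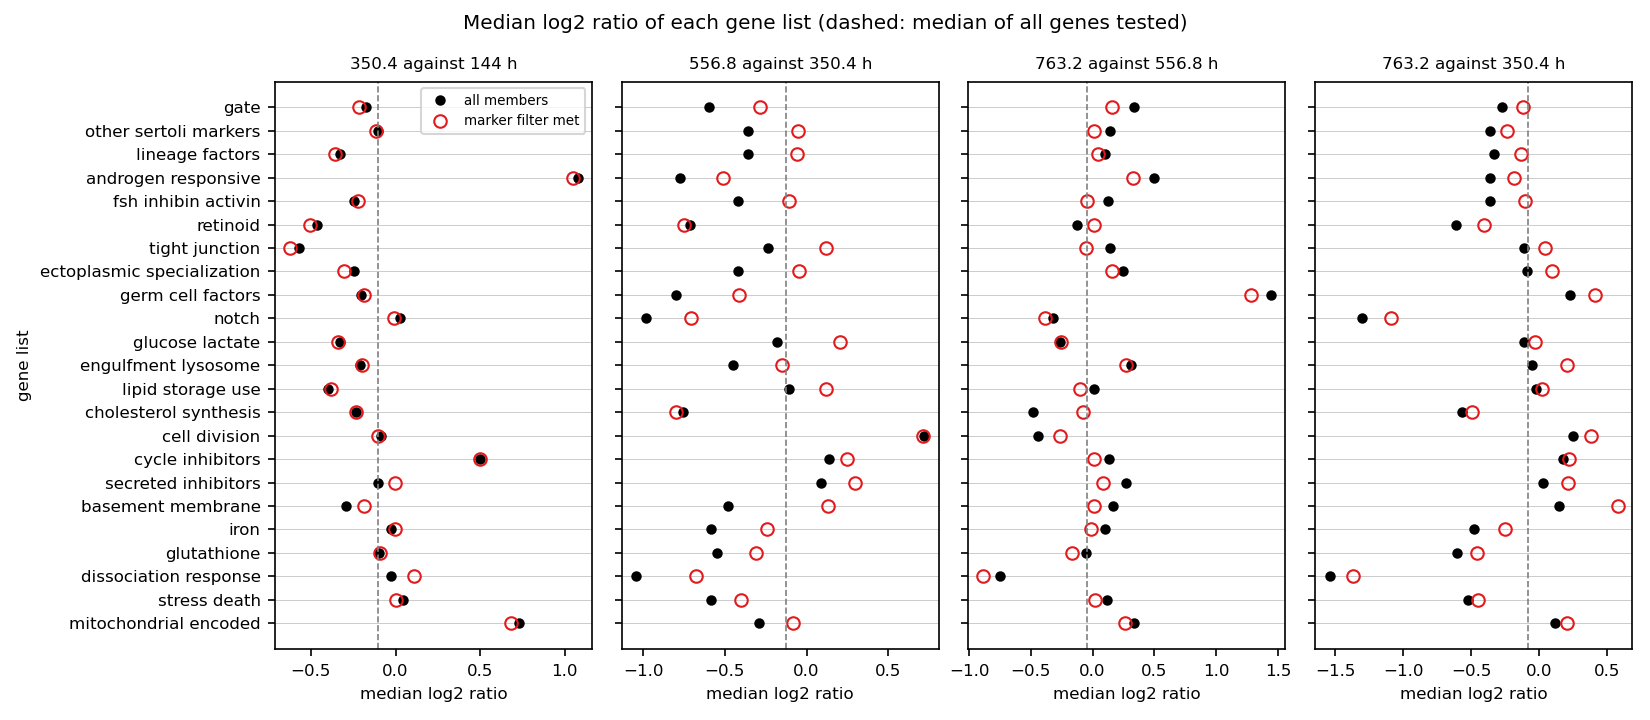
Median log2 ratio of each gene list over its compared genes (horizontal axis) in 4 panels, 1 per comparison of libraries. Black points use all Sertoli cells, open red points those that passed the marker filter, and the dashed line is the median over all genes compared. The androgen-responsive list sits at −0.77 at 556.8 h against 350.4 h and at 0.50 at 763.2 h against 556.8 h, and the dissociation list at −1.54 at 763.2 h against 350.4 h.

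The 350.4 h cells also differed from those of 144 h. Here 163 of 6176 genes (2.64%) were higher and 249 (4.03%) lower, with a median log2 ratio of −0.10. The higher genes were 39.6% of those called, and 54.5% when mitochondrial UMIs were left out of the total. Aqp8 was 50.8 times as high at 350.4 h (43.1 to 60.3). The barrier claudin Cldn3 was at 64.0 CPM at 350.4 h against 3.77 CPM at 144 h (ratio 17.0, 13.8 to 21.0), and Svs5 at 58.4 CPM against 3.55 CPM. Of the 9 tight junction genes compared, Cldn3 was the 1 higher, and 2 were lower (Jam3 and Ocln), with a median log2 ratio of −0.57. In the androgen-responsive list, 5 of the 8 genes compared were higher (Cldn3, Corin, Eppin, Gpd1 and Rhox5) and none lower, with a median of 1.08. Lower genes included the synuclein Sncb, at 4.3 CPM against 72.7 CPM, the activin-binding protein Fstl3, at 18.5 CPM against 122 CPM, and the matrix metalloproteinase Mmp11, 0.135 times as high. Shisa8 was at 12.3 CPM against 274 CPM (ratio 0.0447).

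Within each late library, Sertoli cells differed from one another in genes that also separated the times. The description that follows uses the cells that passed the marker filter and groups them by Lgals1, a choice made after the values were seen, so it carries no test. No Lgals1 UMI was found in 161 of 221 cells at 350.4 h (72.9%), in 12 of 82 at 556.8 h (14.6%) and in 27 of 64 at 763.2 h (42.2%). At least 500 CPM of Lgals1 was found in 11 (4.98%), 59 (72.0%) and 28 (43.8%) cells. Cells without Lgals1 and cells at 500 CPM or more were thus both present at each late time, in different proportions. At 350.4 h a Lgals1 UMI alone may not mark a cell as expressing the gene, since the thinned share was below that of germ cell barcodes there.

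Cells without Lgals1 nearly all held Aqp8. An Aqp8 UMI was found in 154 of 161 cells without Lgals1 at 350.4 h (95.7%), 11 of 12 at 556.8 h (91.7%) and 27 of 27 at 763.2 h. In cells with Lgals1 it was found in 40 of 60 (66.7%), 10 of 70 (14.3%) and 7 of 37 (18.9%). Gsta2 had the same pattern, found in 93.8, 83.3 and 96.3% of cells without Lgals1 and in 56.7, 30 and 27.0% of cells with it. Uchl1 and Cidea had the opposite one. Uchl1 was found in 34.8, 41.7 and 14.8% of cells without Lgals1 and in 61.7, 94.3 and 91.9% of cells with it, and Cidea in 23.0, 33.3 and 11.1% and in 53.3, 92.9 and 86.5%. These shares are not thinned. The median depth was 28711, 18387 and 17089 UMIs in cells without Lgals1 and 27329.5, 22975 and 19430 UMIs in cells with it, and the median mitochondrial share was 22.8, 21.7 and 25.6% and 22.1, 22.0 and 24.7%.

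**Figure D4:**
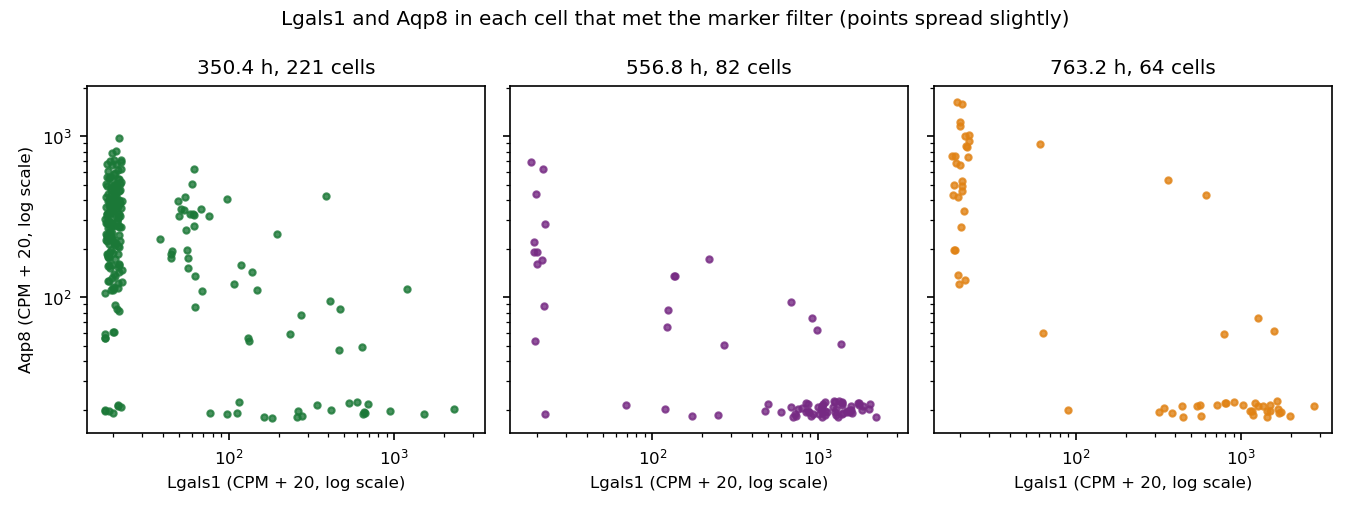
Lgals1 (horizontal) against Aqp8 (vertical) in each cell that passed the marker filter, in CPM plus 20 on log axes, in 3 panels for 350.4, 556.8 and 763.2 h; points are spread slightly for display. Most cells lie along one axis or the other: high Aqp8 without Lgals1 dominates at 350.4 h, high Lgals1 without Aqp8 at 556.8 h, and both groups are present at 763.2 h.

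Ptgds, Serpina3a and S100a1, all high at 763.2 h, were higher in the cells without Lgals1. At 763.2 h, Ptgds was at 1922 CPM in cells without Lgals1 and 423 CPM in cells with it, Serpina3a at 524 and 11.6 CPM, and S100a1 at 229 and 15.9 CPM. Rhox5 and Eppin were likewise higher without Lgals1, at 935 against 143 CPM and at 652 against 165 CPM, and Ctsl was at 8559 against 3878 CPM. On the other side, Tmem255a and Sowahd had 0 UMIs in the cells without Lgals1 and 200 and 91 UMIs in the cells with it. Espn was at 617 CPM without Lgals1 and 1366 CPM with it, Gas6 at 162 and 362 CPM, and Alas2 at 37.4 and 68.1 CPM. Clu was at 6822 CPM without Lgals1 and 5861 CPM with it. Defb19, at 7836 and 7082 CPM, and Sox9, at 299 and 213 CPM, belong to the rule by which the cells were chosen.

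At 556.8 h the 12 cells without Lgals1 had the same leaning. Aqp8 was at 279 CPM in them and 8.93 CPM in the 70 cells with Lgals1, Gsta2 at 433 and 34.5 CPM, and Rhox5 at 633 and 193 CPM. Ptgds, in contrast, was at 66.7 and 77.9 CPM, so the cells without Lgals1 held it at a high level at 763.2 h and not at 556.8 h. At 350.4 h the contrast by this grouping was smaller, with Aqp8 at 296 and 151 CPM, Gsta2 at 475 and 174 CPM and Rhox5 at 673 and 294 CPM. In the 11 cells at that time with at least 500 CPM of Lgals1, however, Aqp8 was at no more than 106 CPM.

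Among 280 genes compared for their spread between cells, Ctsl ranked first by the lowest excess over counting noise in the 3 late libraries. Its variance was 18.0, 8.44 and 27.7 times the Poisson variance at 350.4, 556.8 and 763.2 h, against a median over the genes of 1.62, 1.47 and 1.74 and, for Defb19, 10.8, 8.13 and 8.35. Across the 221, 82 and 64 cells, Spearman's rho between Ctsl and Amhr2 was 0.65, 0.55 and 0.61 and between Ctsl and Eppin 0.59, 0.32 and 0.74. Between Lgals1 and Rhox5 it was −0.55, −0.33 and −0.70, and between Lgals1 and the membrane protein Tspan17 0.46, 0.60 and 0.86. Cells of a library share its preparation and its free RNA, and these pairs were picked after the values were seen among 467 genes compared, so these values describe the cells only.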

How the data were processed

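Single-cell RNA libraries of dissociated whole testis had been made on a droplet platform, 1 per time. The deposited matrices hold whole UMI counts per gene and barcode, and per the file headers they came from Cell Ranger 3.0.2. The submitters' processing notes also name Seurat 4.3.0.1 and the mm10 build, with no role stated, and no alignment settings are given in the sources used here. Of 27998 features, 27645 matched the GENCODE annotation of the given reference by identifier.

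Sertoli cells were taken by the fixed marker rule from every barcode, their UMIs were summed per library and scaled to CPM, and genes with a mean of at least 20 CPM over the libraries compared were compared at a limit of 2-fold. Intervals of ratios and levels are exact (conditional binomial and Poisson), shares have Clopper-Pearson intervals, all at 95%, and they cover counting error only. A level of 0 was bounded with 3 counts per library. For shares, cells were thinned to 5000 UMIs, with germ cell barcodes (over 3 Ddx4 and Dazl UMIs) set beside them. Free RNA in droplets was not removed in the values reported first. Scrublet marked 3, 4 and 1 of the Sertoli cells at 350.4, 556.8 and 763.2 h at a score of 0.25, and they were kept. The calculations were checked on simulated counts.

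Named genes were the 10 highest and 10 lowest per comparison (8 each way against 144 h) by the interval bound nearest to no change. The interval had to lie beyond 2-fold, with at least 50 UMIs and 50 CPM where the gene was higher and 2 times the level of the other barcodes there. Clone names, symbols held by more than 1 feature and ribosomal Mrp genes were left out, and not every gene so found is described; some items are not reported here. The other genes with values come from the gene lists, the rule or the cell-to-cell comparison. The members and the 24 gene lists were chosen with earlier results of these data known. Software was Python 3.11.15 with numpy 2.4.6, scipy 1.17.1, pandas 2.3.3, scanpy 1.11.5 and matplotlib 3.10.9.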

Additional observations from a re-analysis of the deposited data

How the results depend on the processing

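No paired analysis was possible because each time had 1 library and no test was made. Of 72 named gene ratios, 67 kept their direction and stayed beyond 2-fold under every alternative run. The named ratios were picked from the same data with intervals already beyond 2-fold, and every setting reuses the same libraries. That count therefore describes the chosen ratios and is no independent check of them. Of the same 72, 46 moved by over 1.5-fold under at least 1 setting. The log2 ratio of Igfbp7 at 763.2 h against 350.4 h was −1.84 with cells under 20% mitochondrial UMIs and −0.87 with cells lacking Ddx4 and Dazl, and that of Serpina3a was −0.17 under the first of these limits. The counts of called genes moved far more. At 556.8 h against 350.4 h, the higher count of 1202 became 716 with the marker filter, 660 with the filter and free RNA subtracted, 68 with free RNA subtracted, 554 with a mean of at least 50 CPM and 6464 with no filter on low values. The lower count of 338 became 171, 148, 1965, 138 and 1660 under the same settings, 861 under 20% mitochondrial UMIs, 631 with Ddx4 and Dazl at 0, 535 without mitochondrial UMIs in the total and 135 when the whole interval had to lie beyond 2-fold.

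At 763.2 h against 556.8 h, the higher count of 129 became 199 with Ddx4 and Dazl at 0, 202 without mitochondrial UMIs in the total, 1259 with free RNA subtracted, 52 at 50 CPM, 2574 with no filter and 47 by the whole interval. The lower count of 210 became 461 under 20% mitochondrial UMIs, 384 with Ddx4 and Dazl at 0, 114 with the marker filter, 94 with the filter and free RNA subtracted, 67 with free RNA subtracted, 57 at 50 CPM, 1436 with no filter and 56 by the whole interval. At 763.2 h against 350.4 h, the higher count of 1075 became 645 with the marker filter, 658 with the filter and free RNA subtracted, 92 with free RNA subtracted, 492 at 50 CPM and 7241 with no filter. The lower count of 244 became 1296 under 20% mitochondrial UMIs, 685 with Ddx4 and Dazl at 0, 142 with the filter and free RNA subtracted, 854 with free RNA subtracted, 96 at 50 CPM, 1228 with no filter and 85 by the whole interval. At 350.4 h against 144 h, the higher count of 163 became 254 without mitochondrial UMIs, 67 at 50 CPM and 5128 with no filter, and the lower count of 249 became 119 at 50 CPM and 1771 with no filter.

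The cells themselves numbered 50, 77 and 31 under 20% mitochondrial UMIs at 350.4, 556.8 and 763.2 h, 41, 45 and 37 with Ddx4 and Dazl at 0, and 82 with the marker filter at 556.8 h. The 2 settings with the marker filter were added after the data were seen. Free RNA was scaled so that spermatid markers came to 0, which took 84.3% of the other barcodes' profile at 556.8 h, 48.0% at 763.2 h and 16.8% at 350.4 h. In cells that passed the marker filter it took 10.7, 7.61 and 16.5%. Spermatid markers made up 0.163 to 20.8% of the UMIs of a cell at 556.8 h. How much of the RNA so subtracted was free RNA was not tested. The scaling could not be set at 144 h, where the markers were at 9.15 CPM in Sertoli cells and 8.24 CPM elsewhere. Apart from the settings' own construction, the cause of these moves was not tested. Among 93 list medians, 24 moved by over 1.5-fold and 45 changed sign under at least 1 setting. At these depths, genes with few UMIs, such as S100a1 at 556.8 h, set only wide intervals.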

Other observations

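Other regulators and enzymes differed between the late Sertoli cells without belonging to the sets described above. The receptor Notch1 was at 95.01 CPM at 350.4 h, 26.9 CPM at 556.8 h and 20.5 CPM at 763.2 h, and the Notch target Hes1 at 177, 89.5 and 71.7 CPM. Of 14 Notch pathway genes 3 were compared, and 2 were lower at 763.2 h than at 350.4 h, beside 3.64% of all genes compared. The thyroid hormone receptor Thra was at 216 CPM at 144 h and at 103, 28.0 and 45.8 CPM at the late times. The sterol oxidase Msmo1 was at 117, 53.8 and 29.4 CPM. The metalloproteinase inhibitor Timp3 was at 120, 204 and 88.8 CPM. The mitochondrial transcript mt-Atp8 was at 87.4 CPM at 144 h and at 341, 327 and 676 CPM at the late times.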
